A study of Mus musculus with 5 samples.

Results

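CREB binding in the mouse fetal testis was compared between embryonic days E13.5 and E18.5, the earliest and the latest stage of the study. The assay was CUT&RUN, in which an antibody brings a nuclease to a bound protein and the DNA cut out around it is sequenced. Cells came from dissociated male gonads, 100000 to an assay, and the labels give no strain, genotype or treatment. Each stage is represented by 1 library made with an antibody against CREB. A CREB library of E16.5 and a library made at E18.5 with an antibody against histone H3K4, whose methylation state the labels leave unnamed, served as reference lists. With 1 library per stage no difference between stages has a replicate check and no test was made. The intervals below are 95% Wilson intervals of a share and cover counting error only.

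On the assembled chromosomes the deposited CREB lists held 834 peaks at E13.5, nearly all 150 bp wide, and 2947 at E18.5, all 160 bp wide, together 3781 of the 28509 peaks in the 4 lists of the series. A peak was called shared when its midpoint lay within 200 bp of a midpoint of the other stage. This gave 782 shared pairs, 52 peaks listed at E13.5 only and 2165 listed at E18.5 only. The files hold positions without scores or read counts, so the depth of each library is unknown, and a peak missing from the shorter list is not shown to be absent from the tissue. A list from whole gonads also cannot tell a change in binding within cells from a change in the share of cells that carry it.

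CREB is a leucine zipper transcription factor that binds the cAMP response element (CRE), the palindrome TGACGTCA, and also its shorter core TGACG. Protein kinase A, activated by cAMP, phosphorylates CREB that is already on DNA and so recruits coactivators. In the adult testis, pituitary hormones that act through cAMP drive steroid synthesis in Leydig cells.

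The promoters below are examples from the 3 classes of peak, read from the RefSeq promoter table for GRCm38.p6, whose coordinates are those of mm10. Shared and E18.5-only examples were picked by the motif they hold or lack, so they do not show how common a motif is. Each line gives the part of the peak that lies in the promoter window and outside annotated genes, from 5' to 3' in the direction of transcription, with every TGACG or its reverse complement CGTCA in capitals. The first set holds shared peaks early in both lists, with the complete CRE in Xab2, Senp2, Cope and Ing3, and the core alone in Oaz1, Dact3 and Opa3.
Xab2: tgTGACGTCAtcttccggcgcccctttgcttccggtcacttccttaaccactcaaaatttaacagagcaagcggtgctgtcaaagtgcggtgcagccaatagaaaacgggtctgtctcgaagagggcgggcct
Senp2: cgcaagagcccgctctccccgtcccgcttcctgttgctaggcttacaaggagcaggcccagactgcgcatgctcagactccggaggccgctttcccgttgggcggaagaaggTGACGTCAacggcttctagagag
Cope: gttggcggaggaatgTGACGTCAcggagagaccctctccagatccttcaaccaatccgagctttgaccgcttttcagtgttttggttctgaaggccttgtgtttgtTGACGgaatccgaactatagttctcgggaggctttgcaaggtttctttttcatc
Ing3: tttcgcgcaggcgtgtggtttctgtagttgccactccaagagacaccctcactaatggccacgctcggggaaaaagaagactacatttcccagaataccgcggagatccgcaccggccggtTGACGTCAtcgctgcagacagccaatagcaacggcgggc
Oaz1: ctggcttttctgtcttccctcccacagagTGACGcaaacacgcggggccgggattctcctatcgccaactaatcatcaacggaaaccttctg
Dact3: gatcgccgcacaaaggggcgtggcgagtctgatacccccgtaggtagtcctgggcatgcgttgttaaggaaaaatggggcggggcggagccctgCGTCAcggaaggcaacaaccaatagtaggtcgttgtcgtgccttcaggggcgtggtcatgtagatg
Opa3: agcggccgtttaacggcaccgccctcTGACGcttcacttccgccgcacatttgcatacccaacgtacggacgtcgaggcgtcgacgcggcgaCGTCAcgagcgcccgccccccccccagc

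Xab2 encodes a protein of transcription-coupled repair and splicing, and its stretch is chr8:3621335-3621467 (minus strand). The Senp2 gene, for a SUMO protease, gave chr16:22009297-22009431 (plus strand). Cope, a subunit of the coatomer coat of Golgi vesicles, gave chr8:70302542-70302701 (plus strand), and Ing3, a subunit of a histone acetyltransferase complex, chr6:21949405-21949564 (plus strand). Oaz1 encodes the antizyme that restrains polyamine synthesis, and its stretch is chr10:80826406-80826497 (plus strand). Dact3, a regulator of Wnt signalling, gave chr7:16875112-16875271 (plus strand), and Opa3, a mitochondrial protein gene, chr7:19228139-19228258 (plus strand). The E18.5 midpoint lay upstream of the start in all 7, at 86.5 bp for Ing3 and 238.5 bp for Oaz1, the nearest and the farthest. In the Opa3 stretch the core occurs at 2 separate places.

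The second set holds peaks listed at E18.5 only. Aplf, Ccdc86 and Rpl27a carry the complete CRE, whereas the promoters of Parp3, Rtn4 and Cyth2 hold no core at all.
Aplf: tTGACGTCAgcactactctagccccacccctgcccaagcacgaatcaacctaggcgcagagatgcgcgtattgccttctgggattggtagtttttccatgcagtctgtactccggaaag
Ccdc86: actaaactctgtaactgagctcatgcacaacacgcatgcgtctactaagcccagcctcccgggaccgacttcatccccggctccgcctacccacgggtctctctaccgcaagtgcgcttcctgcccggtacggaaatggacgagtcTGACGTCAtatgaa
Rpl27a: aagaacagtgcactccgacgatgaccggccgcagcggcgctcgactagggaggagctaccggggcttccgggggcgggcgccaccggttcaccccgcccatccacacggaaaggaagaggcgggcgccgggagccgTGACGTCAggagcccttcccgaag
Parp3: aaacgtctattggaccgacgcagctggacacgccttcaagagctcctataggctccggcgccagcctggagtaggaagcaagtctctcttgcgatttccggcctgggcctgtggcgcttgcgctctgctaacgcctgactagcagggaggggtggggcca
Rtn4: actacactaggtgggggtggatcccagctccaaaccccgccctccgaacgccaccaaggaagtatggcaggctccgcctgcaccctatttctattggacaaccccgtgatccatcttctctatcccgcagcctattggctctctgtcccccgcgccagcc
Cyth2: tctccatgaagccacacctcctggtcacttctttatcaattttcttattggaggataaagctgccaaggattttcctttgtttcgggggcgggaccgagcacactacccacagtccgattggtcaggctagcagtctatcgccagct

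Aplf, a DNA end-joining factor, lies at chr6:87672251-87672369 (minus strand), and Ccdc86, a nucleolar protein gene, at chr19:10949276-10949435 (minus strand). Rpl27a, a protein of the large ribosomal subunit, lies at chr7:109518962-109519121 (plus strand). Parp3, an ADP-ribosyltransferase gene, lies at chr9:106477036-106477195 (minus strand), Rtn4, a reticulon of the endoplasmic reticulum, at chr11:29692732-29692891 (plus strand), and Cyth2, an exchange factor for ARF GTPases, at chr7:45814420-45814566 (minus strand). The nearest E13.5 midpoint was 288152 bp away at Cyth2 and 317085 bp away at Parp3. The third set holds peaks listed at E13.5 only. Cic encodes a transcriptional repressor and Sh3gl1 an endophilin of endocytosis, and neither stretch holds the core. They are not typical in this, since 6 of the 9 E13.5-only promoters searched held the core.
Cic: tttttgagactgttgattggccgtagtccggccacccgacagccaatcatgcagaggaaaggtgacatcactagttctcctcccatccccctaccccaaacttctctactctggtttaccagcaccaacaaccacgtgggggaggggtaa
Sh3gl1: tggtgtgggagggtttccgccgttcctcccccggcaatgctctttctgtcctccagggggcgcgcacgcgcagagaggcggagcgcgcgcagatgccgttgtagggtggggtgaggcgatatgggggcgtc

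The Cic stretch is chr7:25267451-25267600 (plus strand) and the Sh3gl1 stretch chr17:56036660-56036790 (minus strand). At Cic an E18.5 midpoint lay 524 bp away, while at Sh3gl1 the nearest was 42570 bp away.

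Nearly the whole E13.5 list was found again at E18.5. The 782 pairs were 93.8% of the E13.5 peaks and 26.5% of the E18.5 peaks. Paired midpoints lay a median of 27 bp apart (quartiles 11 and 56 bp), and 674 pairs (86.2%) were within 75 bp. The pairs just inside the limit of 200 bp were those at Swsap1 (175 bp), Gem (178 bp) and Dus4l with Cog5 (189 bp). Just outside it lay E13.5 peaks at Gdf9 with Uqcrq (202 bp), Slc35f5 (205 bp) and Ppp1r10 with Mrps18b (209 bp). In all, 13 E13.5 midpoints lay between 200 and 250 bp from an E18.5 midpoint, so the limit runs through a thin tail of distances and not through a gap.

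**Figure D1:**
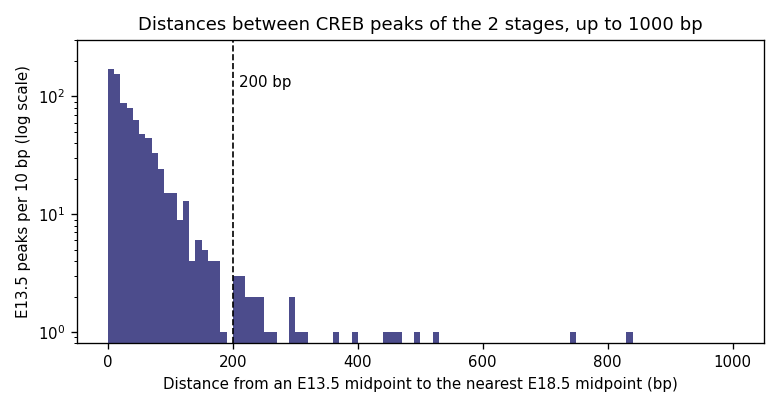
Number of E13.5 CREB peaks (log scale) by the distance in bp from their midpoint to the nearest E18.5 midpoint, in 10 bp bins up to 1000 bp; the dashed line is the 200 bp limit. Most of the 834 peaks lie within 75 bp, and the 25 with no E18.5 midpoint within 1000 bp are not drawn.

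The 12 shared pairs with the lowest mean position in the files lay 2 to 36 bp apart. Each of them had an E16.5 midpoint within 200 bp and an H3K4 midpoint within 1000 bp. Their nearest genes were Oaz1, Dact3, Cep57 (centrosome), Opa3, Foxred1 (assembly of respiratory complex I), Xab2, Csnk1g2 (a casein kinase), Ss18l2, Tpst2 (protein tyrosine sulfation), Ap2a1 (clathrin adaptor), Lrif1 and Sec16a (export from the endoplasmic reticulum). The Lrif1 peak lay 14864.5 bp from the outer gene ends but 30.5 bp from an annotated start inside the gene. The Sec16a peak lay 873.5 bp inside the gene end and 203.5 bp upstream of a start.

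In the complete lists, late rows were shared less often than early ones. Cut into 10 equal parts in file order, the E18.5 list was shared with E13.5 by 94.6% (91.4 to 96.6) in the first part, 69.5% in the second, 42.7% in the third and 28.8% in the fourth. The share was 12.5% in the fifth part and 0.680% (0.187 to 2.45) in the last. In the E13.5 list it was 100% (95.6 to 100) in the first part and 85.5% (76.4 to 91.5) in the last. The share of E18.5 peaks with an H3K4 midpoint within 1000 bp ran between 90.2% and 93.6% over the first 6 parts and was 77.6% in the last, so most late E18.5 peaks still lay beside H3K4. What the file order stands for is not given in the sources used here.

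**Figure D2:**
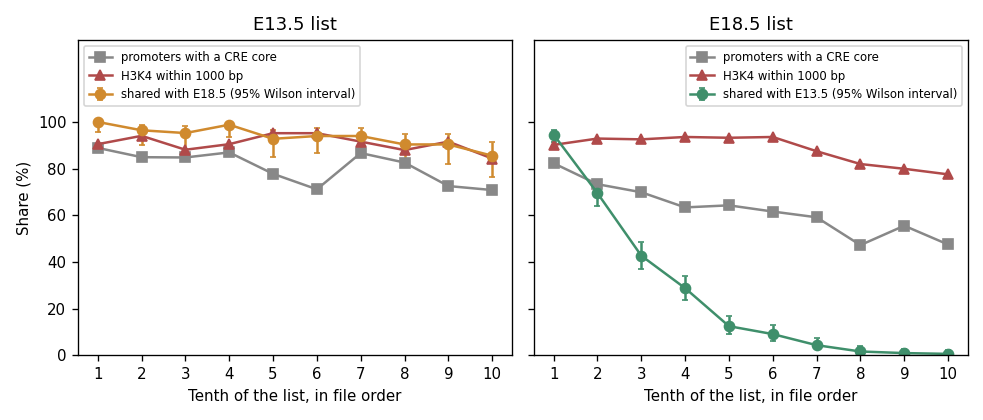
Share in percent of peaks shared with the other stage (with 95% Wilson intervals), of promoters with the CRE core and of peaks with an H3K4 midpoint within 1000 bp, for 10 equal parts of the E13.5 list (left) and the E18.5 list (right) in file order. The shared fraction of the E18.5 list goes from 94.6% to 0.680% along the list, while H3K4 remains beside 77.6% of peaks or more.

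Because the lists differ in length, the comparison was repeated with only as many first rows of the E18.5 file as the E13.5 file holds, which left 834 and 859 peaks on the assembled chromosomes. These equal-length lists held 598 shared pairs, 71.7% (68.6 to 74.7) of the E13.5 peaks and 69.6% (66.5 to 72.6) of the E18.5 peaks. The peaks left unpaired were then close in number, 236 at E13.5 and 261 at E18.5. Of the 236, 184 had their E18.5 partner in later rows. The E13.5 file was not cut, so the 261 had no partner in the complete lists either. With 0.5 of those rows, the first of each file, the shares were 71.1% and 67.8%. Both shares divide the same pairs by nearly equal numbers, so their likeness, and that of the unpaired numbers, comes from the equal length and says nothing of the stages. Along the equal-length lists, cut into 10 parts, the share of E13.5 peaks paired was 100% (95.6 to 100) in the first part, 77.1% (67.0 to 84.8) in the fifth and 42.2% (32.1 to 52.9) in the last. For E18.5 peaks it was 98.8% (93.7 to 99.8), 69.8% (59.4 to 78.5) and 48.2% (37.9 to 58.7).

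Shared peaks and E18.5-only peaks lay at the ends of protein-coding genes far more often than E13.5-only peaks did. Within 1000 bp of an outer gene end lay 83.9% (81.1 to 86.3) of shared peaks, 77.6% (75.8 to 79.3) of E18.5-only peaks and 55.8% (42.3 to 68.4) of E13.5-only peaks. The H3K4 list had 61.2% there. Inside gene bodies away from the ends lay 10.7%, 14.4% and 25% of the classes in the same order, and outside genes 5.37%, 7.99% and 19.2%. At gene ends the median distance was 107.5 bp for shared, 96.5 bp for E18.5-only and 157.5 bp for E13.5-only peaks. Where an annotated start was within 1000 bp, 81.8% of shared and 78.8% of E18.5-only midpoints lay upstream of it, at a median offset of -100.5 bp and -87.5 bp, whereas H3K4 midpoints had a median offset of 193.5 bp, inside the gene. The E13.5-only peaks, 24 of them near a start, lay upstream in 54.2%. At equal list length the share at gene ends was 83.8% for shared peaks, 78.0% (72.3 to 82.8) for E13.5-only and 88.5% (84.1 to 91.8) for E18.5-only peaks. That E13.5-only class of 236 includes the 184 peaks with an E18.5 partner in later rows, so 78.0% does not describe peaks unpaired in the complete lists.

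Many peaks lay close to the ends of several genes. Ends of 2 or more protein-coding genes were within 1000 bp of 23.1% (20.3 to 26.2) of shared peaks and 17.0% (15.5 to 18.6) of E18.5-only peaks, against 8.98% of H3K4 peaks. Examples are the shared peaks at Cep57 with Fam76b, Foxred1 with Srpr and Ap2a1 with Tsks, where the midpoint lay inside a gene, and at Xab2 with Pet100, where it lay outside both.

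The other libraries placed the classes in the same order. An H3K4 midpoint lay within 1000 bp of 92.6% (90.5 to 94.2) of shared, 86.7% (85.3 to 88.1) of E18.5-only and 63.5% (49.9 to 75.2) of E13.5-only peaks. An E16.5 CREB midpoint lay within 200 bp of 92.1% (90.0 to 93.8), 68.6% (66.7 to 70.6) and 42.3% (29.9 to 55.8). The E16.5 peaks are 630 bp wide, which leaves their midpoints less precise. In the equal-length lists, 93.0% of shared, 79.7% (74.1 to 84.3) of E13.5-only and 91.2% (87.1 to 94.1) of E18.5-only peaks had an E16.5 midpoint within 200 bp. There, H3K4 lay within 1000 bp of 92.1% of shared, 92.7% of E18.5-only and 87.3% of E13.5-only peaks. Most of these E13.5-only peaks, 184 of 236, were shared in the complete lists.

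The 52 E13.5-only peaks were of 2 kinds. For 27 of them an E18.5 midpoint lay 200 to 1000 bp away, and of these 22 (81.5%, 63.3 to 91.8) were at a gene end and 24 had H3K4 within 1000 bp. The first by row was at Tpr, a nuclear pore protein gene with an end beside Odr4, where the E13.5 peak of row 93 and the E18.5 peak of row 133 lay 264 bp apart. Others of this kind were at Zranb3 with R3hdm1, Rap2a, Vrk3 with Zfp473, Cenpn (kinetochore), Catsperd with Lonp1, Rbm15, Nr1h2 (a sterol-activated nuclear receptor), Esyt1, Gosr2 (Golgi transport), Acd with Pard6a (telomere cap), Pcnt (pericentriolar material) and Ufd1 with Cdc45. Their distances to E18.5 ranged from 216 bp at Zranb3 to 458 bp at Rbm15 among those named.

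The other 25 E13.5-only peaks had no E18.5 midpoint within 1000 bp, and 7 of these (28%, 14.3 to 47.6) were at a gene end. The 7 were at Pigg (row 465; GPI anchor synthesis), Coq10a (row 510; coenzyme Q function), Armcx1 (row 616), Rundc3a (row 684), Sh3gl1 (row 733), Glyctk (row 796; glycerate kinase) and Usp9x (row 813; a deubiquitinase). All but Sh3gl1 had an E16.5 midpoint within 200 bp, from 44 bp at Pigg to 195 bp at Usp9x. All 7 had an H3K4 midpoint within 1000 bp. Of the 25, 16 had no E16.5 midpoint within 1000 bp either, and of these 1 was at a gene end and 2 had H3K4 beside them. Among those away from genes were peaks nearest to Cdh8, a cadherin gene 141910 bp away, Slc39a11, 130586 bp away, and Dspp, 14185.5 bp away. The first 200 rows of the E13.5 list held 3 E13.5-only peaks, the earliest of them in row 93. On chromosome 9, 3 E13.5-only peaks lay inside the predicted gene Gm20783, between positions 124424584 and 124425810, at 247, 292 and 830 bp from the midpoint of the same E18.5 peak, that of row 143.

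The E18.5-only peaks were mostly far from any E13.5 peak, since 2120 of 2165 (97.9%) had no E13.5 midpoint within 1000 bp. The first by row was at Egr1, an immediate early transcription factor gene, in row 14 on chromosome 18 (34860887 to 34861046). It lay 240.5 bp outside the gene and 49 bp from an H3K4 midpoint. The nearest E13.5 midpoint was 71019 bp away and the nearest E16.5 midpoint 71112 bp away, so Egr1 was listed at E18.5 alone. The next was the Odr4 peak of row 133, followed by Gm20783 in row 143, 247 bp from an E13.5 midpoint, and Chmp4b (membrane scission) in row 187.

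Of the first 20 E18.5-only peaks by row, 17 were at a gene end, 18 had an E16.5 midpoint within 200 bp and 16 an H3K4 midpoint within 1000 bp. Among them were Parp3 with Rrp9 in row 208 and 4930579G24Rik with Etfdh (electron transfer from fatty acid oxidation) in row 220. Others were Erg28 with Ttll5 in row 236, Luc7l2 (splicing) in row 242, Klf13 (a zinc finger factor) in row 244 and H2-Ab1 (antigen presentation) in row 261. Later came Rtn4 (row 263), Zscan21 (row 268), Cyth2 (row 281), Zfp619 (row 310), Arrb2 (receptor desensitisation, row 318), E4f1 (row 320) and Arhgap35 (row 324). The peaks nearest to Ptprs and Nbeal1 lay 14220.5 and 1697.5 bp inside the outer gene ends, but 119.5 and 161.5 bp upstream of annotated starts. At H2-Ab1 an E13.5 midpoint lay 1423 bp away. At Klf13 the nearest H3K4 midpoint was 41931 bp away.

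Promoters of shared peaks held CRE sequences more often than those of E18.5-only peaks in the complete lists. Motifs were searched on both strands of the 300 base RefSeq promoter (250 before to 50 after a start) that held the peak midpoint, which gave 484 promoters of shared peaks, 1222 of E18.5-only and 9 of E13.5-only peaks. The table held 21263 promoters of protein-coding genes in all. The complete CRE TGACGTCA stood in 16.3% (13.3 to 19.9) of shared promoters, 8.51% (7.07 to 10.2) of E18.5-only promoters and 2.23% of all promoters. The core TGACG, which the complete CRE contains, stood in 80.8% (77.0 to 84.0), 56.5% (53.8 to 59.3) and 23.6%. It occurred at 2 or more separate places in 36% of shared, 15.5% of E18.5-only and 4.72% of all promoters. Among 8106 promoters with H3K4 but no CREB midpoint of any stage within 1000 bp, 0.604% held the complete CRE and 21.9% the core. The variant TGACGCA, which also contains the core and is the form found in the Oaz1 stretch, stood in 14.5%, 7.86% and 2.57% of shared, E18.5-only and all promoters. Of the 9 E13.5-only promoters, 2 held the complete CRE and 6 the core, too few for a comparison.

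At equal list length the complete CRE stood in a larger share of E13.5-only than of E18.5-only promoters. With 1 library per stage this difference was not tested. Of the 236 E13.5-only peaks of these lists, 184 had an E18.5 partner in later rows, so most are not particular to E13.5. The complete CRE stood in 23.7% (17.0 to 32.2) of 118 E13.5-only promoters, 10.8% (6.93 to 16.4) of 167 E18.5-only promoters and 13.6% (10.5 to 17.5) of 374 shared promoters. The core stood in 75.4% (66.9 to 82.3), 61.1% (53.5 to 68.1) and 81.6% (77.3 to 85.2). Along the complete E18.5 list the core was found in 82.3% of promoters in the first of the 10 parts and 47.5% in the last, and along the E13.5 list in 88.9% and 70.8%. The complete CRE showed no such course in the E13.5 list, with 13% in the first part and 25% in the last, where a part holds about 50 promoters.

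Motifs of other factors separated CREB promoters from the rest but not the 2 large classes from each other. The CCAAT box, the site of NF-Y, stood in 58.7% (54.2 to 63.0) of shared and 55.9% (53.1 to 58.7) of E18.5-only promoters, against 38.2% of all promoters and 32.8% of those with H3K4 and no CREB. The GC box GGGCGG, bound by Sp factors, stood in 77.5% and 73.3%, against 46.2% and 67.0%. The ETS core CCGGAA stood in 32.9% and 33.2%, against 18.7% and 26.7%. The median ratio of observed to expected CpG was 0.848 in shared and 0.827 in E18.5-only promoters, 0.750 with H3K4 and no CREB, and 0.567 over all promoters, and the GC content was 61.3%, 61.7%, 62.3% and 56.3%. A match to these letters is a description of the window and is not shown to be a bound site.

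**Figure D3:**
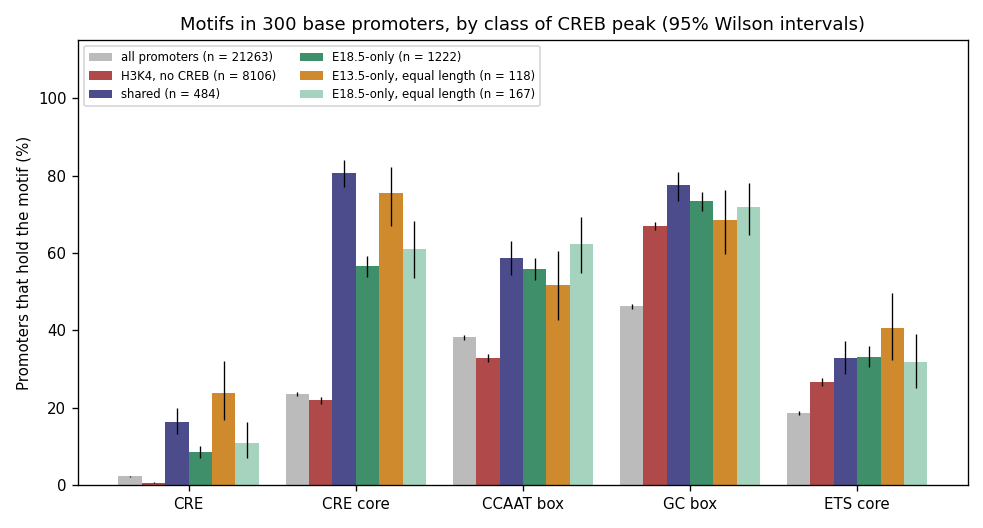
Percent of promoters (300 bases) that hold each motif, by class of CREB peak (the last pair from the equal-length lists), beside all promoters and promoters with H3K4 and no CREB; bars are shares with 95% Wilson intervals and n is the number of promoters. In the complete lists the CRE and its core separate shared from E18.5-only promoters, while the CCAAT box, GC box and ETS core stand at like heights in both. At equal length the complete CRE stood in 13.6% (10.5 to 17.5) of shared promoters, not drawn, and 10.8% (6.93 to 16.4) of E18.5-only promoters.

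Within promoters the core was more frequent from the midpoint towards the gene than on the far side. Overlapping matches were counted as 1 place. Within 40 bp of the E18.5 midpoint there were 5.19 cores per 1000 bases in shared promoters, against 3.94 at 80 to 160 bp with both sides pooled, and 3.31 against 2.49 in E18.5-only promoters. All promoters averaged 0.992. For E13.5-only promoters of the equal-length lists, measured from the E13.5 midpoint, the values were 5.46 and 3.71, from 50 and 44 places. From 80 to 100 bp towards the gene the rate in shared promoters was 6.59, against 3.54 at the same distance on the other side, and in E18.5-only promoters 3.69 against 2.07. Single bins on the gene side exceeded the central rates, with 6.98 at 40 to 60 bp in shared and 4.56 at 60 to 80 bp in E18.5-only promoters.

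**Figure D4:**
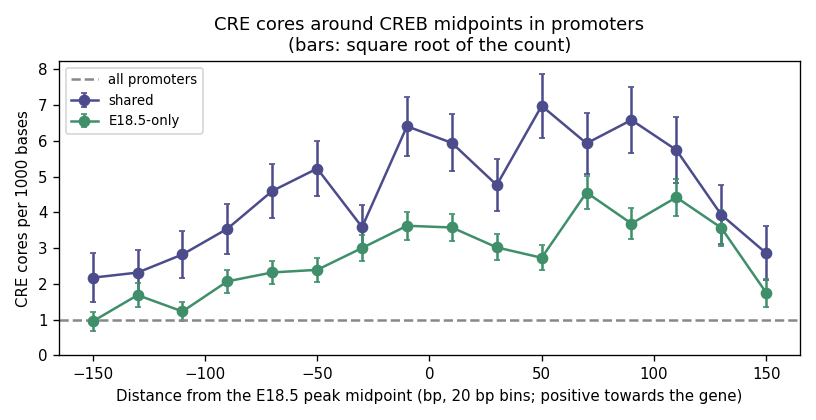
CRE cores per 1000 bases in 20 bp bins by distance in bp from the E18.5 midpoint, for shared and E18.5-only promoters. Positive distances run towards the gene. Bars are the square root of the count put on the scale of the rate, that is, the rate divided by that square root. The dashed line is the mean of all promoters. Shared promoters stand above E18.5-only promoters in every bin.

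By gene, 838 of 21887 protein-coding genes had a peak midpoint of both stages within 1000 bp of an end (3.83%), 1950 of E18.5 only (8.91%) and 12 of E13.5 only (0.0548%). In the equal-length lists the numbers were 647 (2.96%), 277 (1.27%) and 203 (0.927%). Of the 1950 genes, 80.7% also had an E16.5 midpoint and 94.6% an H3K4 midpoint at an end. At 5 of the 12 genes with E13.5 only, Armc5, Gm38529, Ppm1b, Prr12 and Rbm15, an E18.5 midpoint lay 1016.5 to 1231.5 bp from a gene end, just beyond the window. The other 7 were Armcx1, Coq10a, Glyctk, Pigg, Rundc3a, Sh3gl1 and Usp9x, all with H3K4 at an end.

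Across 28 gene lists, members with a CREB midpoint at an end were listed either at both stages or at E18.5 only. With 0.0548% of all genes at E13.5 only, the lack of such members says nothing of the lists. In the equal-length lists 19 of the 28 had members at E13.5 only and 20 had members at E18.5 only, beside 0.927% and 1.27% of all genes. The numbers at E13.5 only and at E18.5 only were 4 and 0 of 85 chaperones, 4 and 4 of 69 splicing factors, and 7 and 6 of 397 Zfp genes. Over all genes, 2800 (12.8%) had a midpoint of either stage at an end, of which 30.4% had one at E13.5 and 69.6% at E18.5 only. The share of members in both was above the 3.83% of all genes in 24 lists, and the share in E18.5 only was above 8.91% in 23. The lists were chosen with earlier results of these data in view, so these counts describe them and are no independent support.

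Of members listed at either stage, 70% of proteasome genes, 60% of cAMP targets and 56.25% of mitochondrial ribosomal protein genes were listed at E13.5. Over all genes it was 30.4%. In the equal-length lists the numbers at E13.5 and E18.5 were 7 and 6, 9 and 10, and 9 and 7, beside 850 and 924 genes in all. Of 39 proteasome genes, 7 were listed at both stages (17.9%, against 3.83% of all genes) and 3 at E18.5 only (7.69%, against 8.91%). Psmd3, a subunit of the regulatory particle, stood in row 131 at E13.5 and row 60 at E18.5, and Psmb9, a catalytic subunit of the immunoproteasome, in rows 59 and 189. Psmb8, its neighbour, stood in rows 691 and 2191. Of 77 mitochondrial ribosomal protein genes, 9 were listed at both stages (11.7%) and 7 at E18.5 only (9.09%). Mrpl54 stood in rows 81 and 589 and Mrpl55 in rows 182 and 1494.

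Of 30 cAMP-induced and immediate early genes, 9 were listed at both stages (30%, against 3.83% of all genes) and 6 at E18.5 only (20%, against 8.91%). Fos, the AP-1 subunit and classical CRE gene, stood in row 86 at E13.5 and row 22 at E18.5, with midpoints 183.5 and 165.5 bp outside the gene. Its relative Fosb stood in rows 13 and 45, at 95.5 and 81.5 bp, and had neither an E16.5 nor an H3K4 midpoint within 1000 bp of an end. Per1, a clock repressor gene, stood in rows 29 and 44, Pcna (replication clamp) in rows 124 and 157, Dusp1 (a phosphatase of MAP kinases) in rows 522 and 732, Ier2 in rows 593 and 800 and Jun in rows 840 and 815. Listed at E18.5 only were Egr1 in row 14, Crem in row 650, Btg2 in row 1848, Junb in row 1884, Egr3 in row 2106 and Per2 in row 2717. Apart from Egr1 and Crem, these stood in rows beyond the length of the E13.5 list.

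Of 28 genes of the CREB pathway itself, 5 had a midpoint at an end (17.9%, against 12.8% of all genes), 2 at both stages and 3 at E18.5 only. Of these, Prkar1b, a regulatory subunit of protein kinase A, was listed at both stages (rows 530 and 458), as was Sik1, a kinase that restrains CREB coactivators (rows 851 and 1022). Crem (row 650), Prkaca, the catalytic subunit of protein kinase A (row 820), and Creb1 (row 2126) were listed at E18.5 only. Of 20 clock genes, 4 were listed at both stages (20%, against 3.83% of all genes), among them Cry2 in rows 620 and 206. At E18.5 only, 5 were listed (25%, against 8.91%), among them Cry1 in row 2019.

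Genes of cholesterol synthesis and uptake, the supply of steroid precursor, had 6 of 27 members at both stages (22.2%, against 3.83% of all genes). At E18.5 only, 9 were listed (33.3%, against 8.91%). Idi1 (isoprenoid isomerase) stood in rows 94 and 275, Srebf2 (sterol-responsive factor) in rows 177 and 138, Dhcr7 (the last reductase of the pathway) in rows 140 and 469, Hsd17b7 in rows 352 and 98 and Hmgcs1 in rows 518 and 413. Listed at E18.5 only were Cyp51 (row 449), Mvk (row 737), Insig1 (row 1221) and Lss (row 2844), among others. Of 17 steroidogenic and Leydig cell genes, 2 were listed at either stage (11.8%), close to the 12.8% of all genes. Both were listed at both stages, Hsd17b12 in rows 35 and 4 and Fdxr, the reductase that feeds electrons to mitochondrial steroid hydroxylases, in rows 132 and 71.

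Other lists stood close to the 69.6% at E18.5 only that holds over all genes with a midpoint, among them cytosolic ribosomal proteins, autophagy genes and histone lysine-modifying enzymes. Of 86 cytosolic ribosomal protein genes, 10 were listed at both stages (11.6%, against 3.83% of all genes) and 30 at E18.5 only (34.9%, against 8.91%). Rpl13a stood in rows 266 and 79 and Rpl4 in rows 97 and 570, while Rps3 (row 460) and Rpl27a (row 657) were listed at E18.5 only. For 30 autophagy genes the numbers were 4 and 12 (13.3% and 40%), and for 64 histone lysine-modifying enzymes 4 and 12 (6.25% and 18.75%). Farther from the share of all genes were 37 ubiquitin-conjugating enzymes, with 1 (Ube2s, rows 358 and 163) and 8. Of these 9 listed members 11.1% were listed at E13.5, against 30.4% over all genes. In the equal-length lists, 10 cytosolic ribosomal protein genes were listed at E13.5 and 15 at E18.5, beside 850 and 924 genes in all.

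The unfolded protein response led the lists in its share of members with a peak, 17 of 26 (65.4%, against 12.8% of all genes). Of the 26 members, 6 were listed at both stages (23.1%, against 3.83%) and 11 at E18.5 only (42.3%, against 8.91%). Hspa5, the chief chaperone of the endoplasmic reticulum, stood in rows 547 and 967, Dnajb9 in rows 270 and 912 and Ppp1r15a in rows 500 and 1332, each beyond the equal-length rows of the E18.5 list. Xbp1 (row 559) and Ddit3 (row 1163), transcription factors of the response, were listed at E18.5 only. Of 85 chaperones, 10 were listed at both stages (11.8%, against 3.83% of all genes) and 25 at E18.5 only (29.4%, against 8.91%). In the equal-length lists 10 of them were listed at E13.5 and 6 at E18.5, beside 850 and 924 genes in all. Genes of Rab GTPases and transport between endoplasmic reticulum and Golgi ran the other way in those lists. Of 92, 10 were listed at E13.5 and 15 at E18.5, beside the same 850 and 924 genes. These differences are of 4 or 5 genes.

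**Figure D5:**
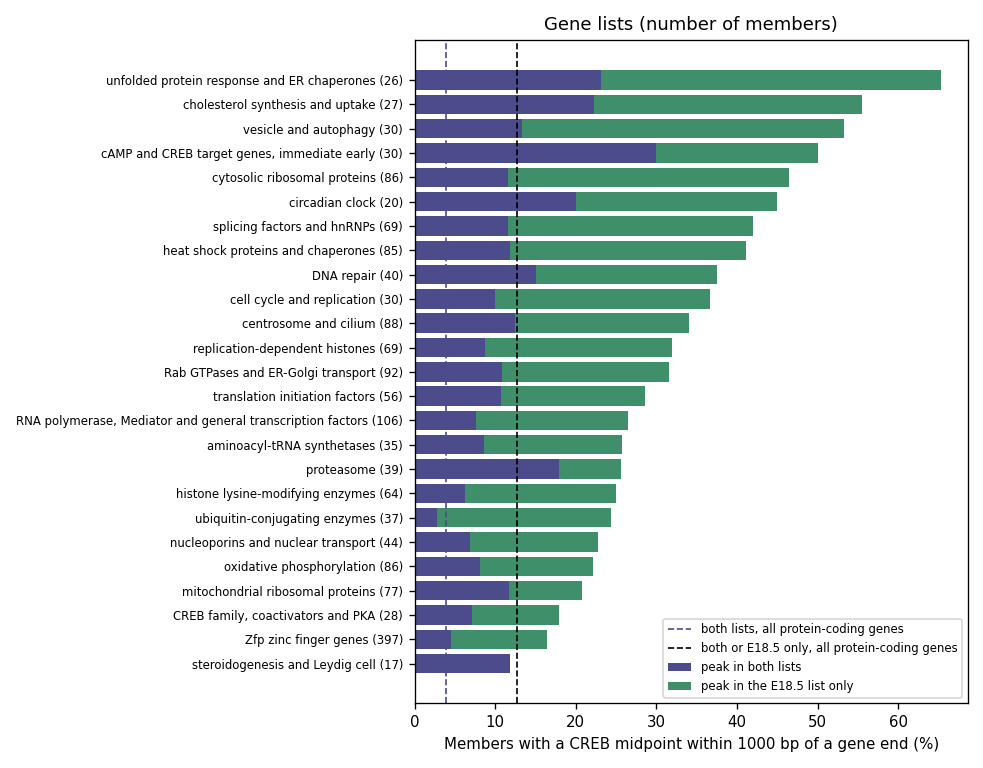
Percent of the members of each gene list (number of members in brackets) with a CREB midpoint within 1000 bp of a gene end, split into genes listed at both stages and at E18.5 only; dashed lines give the shares over all protein-coding genes. The unfolded protein response has the longest bar, and the lists with no member in either stage are not drawn.

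Genes that mark the cell types of the gonad had no CREB midpoint at their outer ends. Of 25 markers of Leydig, Sertoli, germ, interstitial, endothelial and macrophage cells, none had one at E13.5 or E18.5, against 12.8% of all genes, while 7 had H3K4 there, namely Star, Cyp11a1, Lhcgr, Sox9, Amh, Dhh and Kdr. Likewise none of 14 Sertoli cell genes, 18 fetal germ cell genes and 39 Hox genes had a midpoint at either stage. Cyp11a1, the enzyme of the first step of steroid synthesis, had an E18.5 midpoint inside the gene, 11174.5 bp from an end. Nr4a1, an orphan nuclear receptor gene induced by cAMP, had a midpoint inside the gene at both stages, 7465.5 bp from an end at E13.5 and 7466.5 bp at E18.5. A start inside a gene is not counted by the measure at outer ends. Cyp17a1, Hsd3b1, Nr5a1, Insl3 and Ddx4 had no midpoint at an end or inside the gene.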

How the data were processed

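CUT&RUN peak lists of CREB at E13.5 and E18.5 were compared, with CREB at E16.5 and H3K4 at E18.5 as references; the IgG library was not analysed here. The deposited files hold 3 columns, chromosome, start and end in mm10, with no score, count or depth; Trim Galore 0.6.10, Bowtie2 2.5.2 and MACS2 are named in the submitters' processing notes. For the settings of the peak calling and the meaning of the row order the entry is: not given in the sources used here. Nearly constant widths mean that width says nothing of a single peak.

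Peaks on unplaced scaffolds were left out and counted apart. Midpoints within 200 bp were paired 1 to 1. Gene ends were taken from RefSeq (GRCm38.p6; 21887 protein-coding genes), starts and strands from a RefSeq promoter table that covers 79.9% of these genes and holds none of chromosome 18. Members, lists and windows were chosen with earlier results of these data known. Named are the first 12 shared pairs by mean row, E13.5-only peaks at gene ends and the first 10 elsewhere, the first 20 E18.5-only peaks, 3 pairs on each side of the limit, up to 8 members per list and class by row, and 16 genes set by name, fewer where many; a gene this rule selects is not reported here. The searches for the other motifs, base composition and motif position, and the split of unpaired peaks at 1000 bp, were chosen after seeing the data. Python 3.11.15 with numpy 2.4.6, pandas 2.3.3, scipy 1.17.1 and matplotlib 3.10.9 was used, and the code was tested on simulated data.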

Additional observations from a re-analysis of the deposited data

Results flagged for a closer look

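Peaks on unplaced or unlocalised scaffolds lie outside the comparison and were listed at both stages. The E13.5 list held 28 of them on 9 scaffolds, 3.25% of its rows, and they include rows 1 and 2 and 3 of the first 10 rows. The E18.5 list held 10 on 5 scaffolds, 0.338% of its rows, the earliest in row 348. All 10 E18.5 peaks and 10 of the 28 E13.5 peaks had a partner of the other stage within 200 bp. No control library was used here for these places, and what the peaks stand for was not tested.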

How the results depend on the processing

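Each of 12 shares was recomputed under 46 other settings in all; 16 values stayed within the 95% interval of the reported share and 30 moved beyond it, and none has a test. With midpoints within 100 bp, 86.8% of E13.5 and 24.6% of E18.5 peaks were shared; within 500 and 1000 bp, 96.6% and 97.0% of E13.5 peaks. The equal-length lists gave 71.7% and 69.6%, and 0.5 of their rows 71.1% and 67.8%. The gene-end share of shared peaks was 79.2% within 500 bp, 90.2% within 2500 bp and 86.8% with all annotated genes; that of E18.5-only peaks 72.5%, 83.8% and 81.5%; that of E13.5-only peaks 71.2% within 2500 bp. In the equal-length lists the gene-end share was 78.0% for E13.5-only and 88.5% for E18.5-only peaks, the H3K4 share 87.3% and 92.7%, and the E16.5 share 79.7% and 91.2%, and 10.8% of E18.5-only promoters held the complete CRE. Of the 236 E13.5-only peaks in the equal-length lists, 184 had an E18.5 partner in later rows. With sharing at 1000 bp, E13.5-only peaks had 28.0% at gene ends and 36% beside H3K4. With partners within 500 bp, H3K4 lay beside 78.1% of shared and 71.1% of E18.5-only peaks, and E16.5 beside 77.6% of E18.5-only and 65.4% of E13.5-only peaks. The core in place of the complete CRE gave 80.8% and 56.5% for shared and E18.5-only promoters. Except for the row limits, which use fewer peaks, and the window widths, the cause was not tested. E18.5-only peaks stood below shared peaks at gene ends in the complete lists and above them in the equal-length lists. No paired analysis was possible because each stage has 1 library. The depth of the libraries is unknown.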
